A study of Mus musculus with 54 samples.

Results

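The response of visceral fat to repeated swimming was compared with the response of liver in the same series of mouse arrays. The members were the 15 arrays that the labels assign to visceral fat or liver, of 54 arrays over 7 tissues in all. Visceral fat had 4 control and 4 swim arrays, and liver had 3 control and 4 swim arrays. All were C57BL6 mice aged 14 weeks, with no transgene or other agent named. Swim mice trained for 3 weeks with 2 sessions per day, each of 90 minutes, separated by 4 hours of rest. Training followed 9 days of acclimation, in which the session grew by 10 minutes at a time. Total RNA was extracted with Trizol, labelled with biotin and hybridised to Affymetrix Mouse Gene 1.1 ST arrays, which carry probe sets along the length of each transcript. The comparison asks which genes answered swimming alike in a fat depot and in liver, and which moved apart.

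A level is given as log2(signal + 16), normalized within each tissue, so levels in visceral fat and in liver lie on separately normalized scales and are compared across tissues only for the tissue markers. A change is the mean level of swim arrays minus that of control arrays, with the standard error (SE) of the limma fit of that tissue. The interaction is the change in visceral fat minus the change in liver, fitted over all 15 arrays, and a positive interaction means a higher response in visceral fat. A gene passed when limma's test gave a Benjamini-Hochberg adjusted p under 0.05 over all genes tested, and "rose" and "fell" are used only of genes that passed. The added 16 makes the change of dim genes smaller than their change in signal. The labels give no batch, no hour of collection, no statement that visceral fat and liver came from the same mice, and none that each array is a separate animal. The p-values therefore measure the spread between these arrays, which may be technical. In whole tissue, fewer cells of a type and less RNA per cell cannot be told apart.

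As background, visceral fat stores triglyceride in adipocytes and also holds endothelial cells, progenitors and macrophages, whose number and state follow the nutritional state. Liver makes fatty acids and plasma proteins in hepatocytes and holds Kupffer cells, the resident macrophages of its sinusoids. Both tissues switch between making fatty acids and burning them, and both carry a circadian clock of transcriptional activators and the repressors those activators induce.

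The tissue labels were borne out by their defining markers. Adipoq, the adipocyte hormone adiponectin, lay between 12.77 and 13.08 in the visceral fat arrays and between 4.26 and 4.94 in the liver arrays, and Plin1, the adipocyte lipid droplet coat, lay between 12.79 and 13.07 and between 4.59 and 5.26. Alb, serum albumin, lay between 13.30 and 13.49 in liver. In visceral fat it read 10.05 in control 1, 9.96 in control 2 and 10.04 in swim 6, and between 7.22 and 8.34 in the other 5 arrays, and Apoa1, the main protein of high-density lipoprotein, was likewise highest in those 3 arrays. Liver control 52 stood apart in 7 skeletal muscle genes, with a mean level of 9.50 against 5.31 to 5.60 in the other 6 liver arrays. Liver control 49 had the lowest mean level of the clock repressors, 6.53 against 7.42 and 7.27 in the other 2 controls. Median signal lay between 49.48 and 90.95 intensity units per array, and the number of arrays limits the precision of every value.

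More genes passed in visceral fat than in liver, and few of them passed in both. In visceral fat 2651 of 11102 genes passed (23.9%), of which 1283 rose (11.6%) and 1368 fell (12.3%). In liver 456 of 11044 genes passed (4.13%), of which 209 rose (1.89%) and 247 fell (2.24%). Among the 9871 genes measured in both tissues, 119 passed in both, which is 5.13% of the 2320 visceral fat calls and 33.8% of the 352 liver calls. The change itself differed between the tissues in 1369 of the 9871 genes (13.9%), with a higher response in visceral fat in 764 (7.74%) and in liver in 605 (6.13%). The correlation of the changes across these genes was weak (Pearson r = 0.16, Spearman rho = 0.12), and genes are not independent replicates.

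Of the 119 genes that passed in both tissues, 76 moved in the same direction (0.77% of the genes tested), 34 up in both (0.344%) and 42 down in both (0.425%). The other 43 moved in opposite directions (0.436%), 26 up in visceral fat and down in liver (0.263%) and 17 down in visceral fat and up in liver (0.172%). Even unrelated calls would coincide in some genes, as 11.6% rose and 12.3% fell in visceral fat, and 1.89% and 2.24% in liver. Whether the 43 exceed such coincidence was not tested. Of the 43, 4 still passed in both tissues with opposite signs with the values as deposited, 13 with median-centred arrays and 11 without liver control 49. In 33 of the 43, swim and control arrays did not overlap in either tissue. Separate groups are largely built into this count, because the 43 were picked for passing on these same arrays. Among all 9871 genes the arrays did not overlap in 27.7% in visceral fat and in 20.5% in liver.

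The split of directions in visceral fat depended on how arrays were scaled. The median change of all genes was -0.02 in visceral fat and 0.00 in liver with quantile normalization, and -0.24 and -0.01 when arrays were centred on their medians. Genes higher in swim made up 48.4% of the visceral fat calls with quantile normalization, 44% with the values as deposited and 12.6% with median centring. The share of interactions that were positive was 55.8%, 63.6% and 14.3% in that order, the share of opposite movers up in visceral fat 60.5%, 84.2% and 20.5%, the share of liver calls that rose 45.8%, 38.4% and 49%, and the share of same-direction genes that rose 44.7%, 36.4% and 30.6%. Changes in visceral fat are therefore read relative to the median gene. Without liver control 49, liver calls numbered 135 and opposite movers 12, and leaving out control 50 or any liver swim array gave between 141 and 265 liver calls and between 17 and 26 opposite movers. Without visceral fat swim 7, visceral fat calls numbered 1692 and opposite movers 26.

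**Figure D1:**
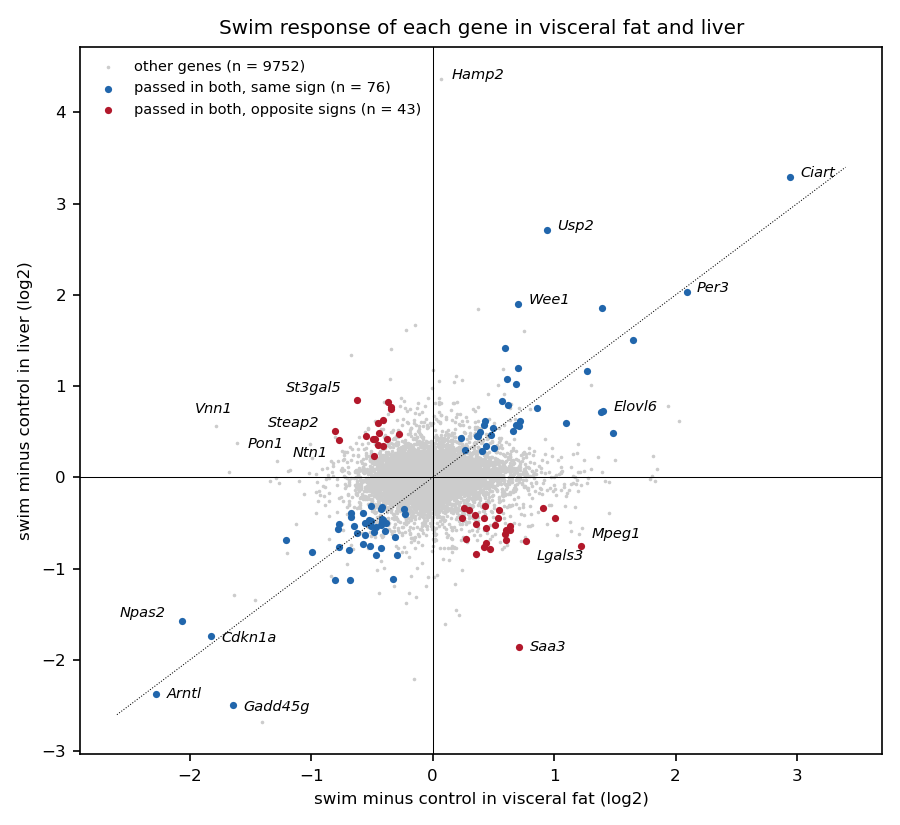
Change after swimming (swim minus control, log2) of 9871 genes in visceral fat (horizontal axis) against liver (vertical axis), 1 point per gene, with the dotted line marking equal change. The 43 red genes passed in both tissues with opposite signs, the 76 blue genes passed in both with the same sign, among them Ciart, Per3, Arntl and Cdkn1a, and the other 9752 are grey; under median centring 13 of the 43 still pass in both tissues with opposite signs.

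The median change of pan-macrophage genes was above 0 in visceral fat and below 0 in liver, and 2 of the 22 measured in both tissues (Mpeg1 and Adgre1) passed in both with opposite signs. Of the 22, 14 passed the interaction test with a higher response in visceral fat and 0 the other way (19 and 0 at an unadjusted p under 0.05, limma). By sign alone, 20 of the 22 were up in visceral fat and down in liver, with Ctsc and Lyz1 as the exceptions. The median change was 0.40 in visceral fat and -0.60 in liver, beside -0.02 and 0.00 for all genes. Within visceral fat 8 of 26 measured genes rose and 1 fell, and within liver 0 of 24 rose and 11 fell (limma, with 0 up and 22 down at an unadjusted p under 0.05). Among all genes 11.6% rose in visceral fat, 2.24% fell in liver and 7.74% passed the interaction test toward visceral fat. With arrays centred on their medians, the list's visceral fat median was 0.19 against -0.24 for all genes, and 14 of the 22 were up there by sign. At that scaling 11 interactions of the list passed toward visceral fat and 1 toward liver.

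Mpeg1, a pore-forming protein of phagocytes, had the largest opposite change of the group. In visceral fat its level was 7.62, 7.37, 7.23 and 7.03 in controls and 9.17, 8.28, 8.35 and 8.34 in swim arrays, a rise of 1.22 ± 0.20 (SE, adjusted p = 0.00353). In liver it was 9.40, 9.40 and 9.41 in controls and 8.59, 8.96, 8.62 and 8.42 in swim arrays, and it fell by 0.75 ± 0.12 (adjusted p = 0.0177). All swim arrays lay above all controls in visceral fat and below them in liver, swim 5 stood highest in visceral fat, and the interaction was 1.98 ± 0.26 (adjusted p = 0.000349).

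Csf2rb and Siglec1 are myeloid genes that were not counted in the pan-macrophage list, and they were picked from the 43 opposite movers after their values were seen. Csf2rb, the shared beta chain of the receptors for interleukin 3, interleukin 5 and GM-CSF, read 8.30, 8.50, 8.37 and 8.45 in visceral fat controls and 8.82, 8.57, 9.06 and 8.88 after swimming. In liver it read 7.02, 6.82 and 6.78 in controls and 6.09, 6.21, 6.14 and 6.01 after swimming. The groups did not overlap in either tissue, and the changes were 0.43 ± 0.10 (adjusted p = 0.0174) and -0.76 ± 0.08 (adjusted p = 0.00645). The rise in visceral fat was lost with the values as deposited and with median centring.

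Siglec1, the sialic acid receptor CD169 of tissue macrophages, went the same way. Its levels were 7.04, 7.22, 7.20 and 7.13 in visceral fat controls and 7.79, 7.39, 7.75 and 7.42 after swimming, a rise of 0.44 ± 0.11 (adjusted p = 0.0165). Its liver levels were 7.29, 7.26 and 7.09 in controls and 6.46, 6.52, 6.72 and 6.26 after swimming, where it fell by 0.72 ± 0.11 (adjusted p = 0.0163). Again no arrays overlapped in either tissue.

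Adgre1, which encodes the macrophage surface marker F4/80, was less even in visceral fat. Controls read 8.50, 8.05, 7.76 and 7.67 and swim arrays 8.89, 8.44, 8.40 and 8.62, so control 1 lay above swim arrays 6 and 7 although the rise of 0.59 ± 0.18 passed (adjusted p = 0.0383). The call was lost when any visceral fat array other than control 1 was left out. In liver it fell by 0.62 ± 0.13 (adjusted p = 0.0397), from 8.40, 8.37 and 8.23 to 7.82, 7.85, 7.83 and 7.34, a call lost without any one of 6 of the 7 liver arrays. The interaction of 1.22 ± 0.24 (adjusted p = 0.00557) was kept in all 25 alternatives that were followed gene by gene.

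Several phagocyte genes passed in visceral fat and not in liver. Ctss, the lysosomal protease cathepsin S, rose by 1.21 ± 0.23 in visceral fat, and its liver change of -0.62 ± 0.14 had an adjusted p of 0.0532. Cybb, the catalytic subunit of the phagocyte oxidase, rose by 1.03 ± 0.25, with a liver change of -0.63 ± 0.15 (adjusted p = 0.0535). C3ar1, the receptor for the complement fragment C3a, rose by 1.23 ± 0.29 and Tyrobp, an adaptor of activating myeloid receptors, by 0.76 ± 0.24, with liver changes of -0.56 and -0.66 that did not pass. The visceral fat groups of Tyrobp overlapped, and its visceral fat call was lost in 10 of 25 alternatives. In all 4 the swim arrays were lower than all controls in liver, and all 4 passed the interaction test.

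C1qb, a chain of complement C1q, passed in liver, where it fell by 0.90 ± 0.16 (adjusted p = 0.0229) from 10.05, 10.0 and 9.87 to 9.24, 9.20, 9.23 and 8.61. Its visceral fat change was 0.14 ± 0.23, with control 1 at 10.66 above every swim array, and its interaction of 1.03 ± 0.31 (adjusted p = 0.0392) was lost in 15 of 25 alternatives. Cd68, a lysosomal glycoprotein of macrophages named after its values were seen, fell by 0.70 ± 0.14 in liver, and its visceral fat change of 0.73 ± 0.29 did not pass (adjusted p = 0.0955). Lyz2, myeloid lysozyme, passed the interaction test alone (1.35 ± 0.35, adjusted p = 0.0197), and its near-identical partner Lyz1 makes both values uncertain. Cd14, the lipopolysaccharide co-receptor, was the 1 pan-macrophage gene that fell in visceral fat, by 0.87 ± 0.21 (adjusted p = 0.0173), and was too dim in liver to be tested.

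Single arrays moved the macrophage counts. The mean level of the measured pan-macrophage genes was 8.83, 8.41, 8.05 and 8.04 in visceral fat controls and 9.07, 8.53, 8.55 and 8.74 after swimming, so control 1 overlapped the swim arrays. In liver it was 8.34, 8.27 and 8.20 in controls and 7.93, 7.83, 7.77 and 7.44 after swimming, with no overlap. The number that rose in visceral fat was 11 without control 1, 4 without control 4 and 5 without swim 5, and the number of interactions lay between 9 (without liver control 49) and 19 (without visceral fat control 1). With the 3 visceral fat arrays of high Alb left out, a choice made after seeing the data, 19 of 22 interactions passed and 13 genes rose in visceral fat. At most 1 gene fell in liver without control 49 or control 50, and 3 without swim 54.

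**Figure D2:**
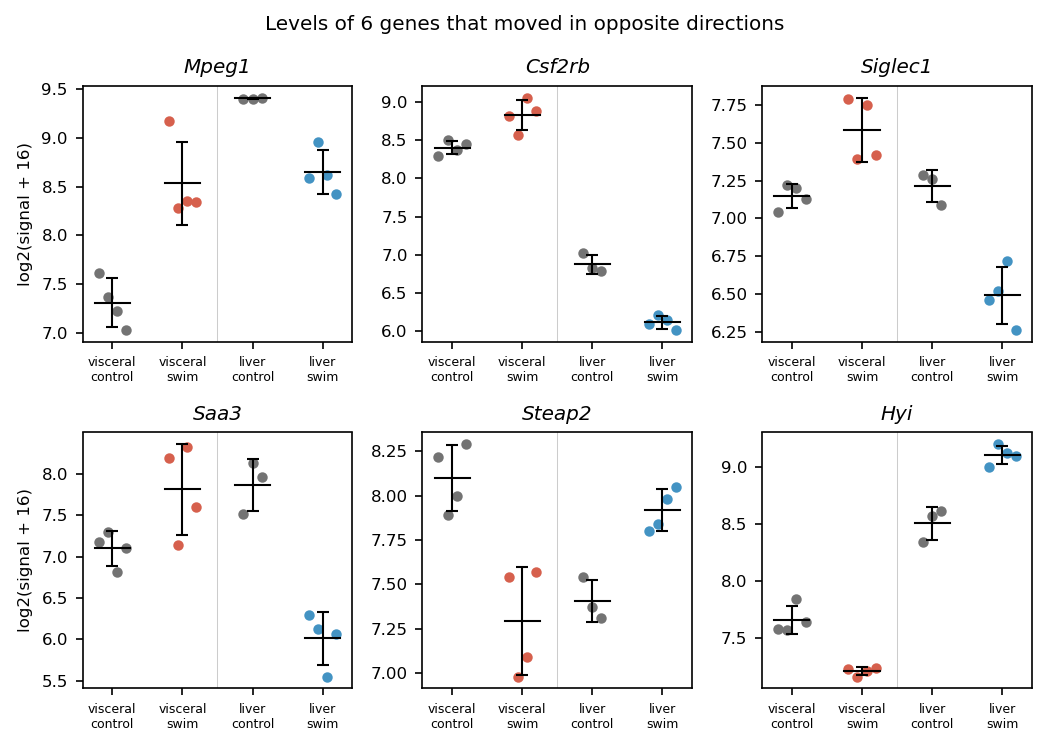
Levels, as log2(signal + 16), of 6 genes that passed in both tissues with opposite signs; each point is 1 array (4 visceral fat control, 4 visceral fat swim, 3 liver control, 4 liver swim) and bars show the mean ± SD. Mpeg1, Csf2rb, Siglec1 and Saa3 were higher after swimming in visceral fat and lower in liver, and Steap2 and Hyi the reverse. Of the 6, only Saa3 had overlapping visceral fat groups, with swim 6 at 7.14 below control 2 at 7.30. With the values as deposited, the visceral fat calls of Csf2rb, Siglec1 and Hyi and the liver call of Steap2 were lost.

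Kupffer cell genes fell in liver, where 2.24% of all genes fell. Of 9 measured there, 5 fell and 0 rose (limma; 5 and 0 also at an unadjusted p under 0.05): Clec4f, a galactose-binding lectin specific to Kupffer cells, Cd5l, a secreted scavenger protein, Vsig4, a complement receptor, Timd4, a receptor for phosphatidylserine on dying cells, and Folr2, a folate receptor. Clec4f read 9.65, 9.64 and 9.68 in controls and 8.60, 8.79, 8.84 and 8.35 after swimming, and it fell by 1.01 ± 0.12 (adjusted p = 0.00737). Folr2 fell by 1.09 ± 0.13, Vsig4 by 0.90 ± 0.19 and Cd5l by 0.77 ± 0.15, and Vsig4 and Cd5l were named after their values were seen. Without liver control 49, 2 of the 9 passed. The Vsig4 call was lost in 9 of 25 alternatives and the Cd5l call in 5 of 25.

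Timd4 fell in both tissues, and it was 1 of 3 Kupffer cell genes measured in visceral fat. In visceral fat it read 7.08, 6.38, 5.95 and 6.48 in controls and 5.56, 5.91, 5.53 and 6.14 after swimming, so the groups overlapped, and it fell by 0.69 ± 0.22 (adjusted p = 0.0471). In liver it fell by 0.80 ± 0.16 (adjusted p = 0.0374), and the interaction was 0.11 ± 0.31 (adjusted p = 0.843). Its visceral fat call was lost without any one of 6 of the 8 visceral fat arrays, and its liver call in 9 of 25 alternatives. Folr2 had a visceral fat change of -0.04 ± 0.36.

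Lipid-laden macrophage and lysosome genes rose in visceral fat in 7 of 21 measured and fell in 2 (Apoe and Cd63), and in liver 2 of 17 fell (Lgals3 and Lpl). Among all genes 11.6% rose and 12.3% fell in visceral fat, and 2.24% fell in liver. Gpnmb, a glycoprotein of lipid-loaded macrophages, rose by 2.04 ± 0.35 in visceral fat (adjusted p = 0.00413), from 8.39, 7.31, 7.56 and 7.23 to 10.68, 9.20, 9.12 and 9.63. Mmp12, macrophage elastase, rose by 1.95 ± 0.34, and Atp6v0d2, a subunit of the lysosomal proton pump, by 1.94 ± 0.29. Gpnmb and Mmp12 lay at or below 5.19 on every liver array and were not tested there. The liver change of Atp6v0d2, 0.78 ± 0.25, was in the same direction as in visceral fat and did not pass (limma, adjusted p = 0.122). Its interaction of 1.15 ± 0.43 did not pass either (adjusted p = 0.0831). Within visceral fat, swim 5 was the highest array for all 3 genes, and all swim arrays lay above all controls.

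Lgals3, the secreted lectin galectin 3, was the member of that list that moved both ways. It read 9.43, 9.21, 9.09 and 9.29 in visceral fat controls and 10.66, 9.72, 9.84 and 9.86 after swimming, a rise of 0.77 ± 0.19 (adjusted p = 0.0165). Liver levels were 6.56, 6.59 and 6.32 in controls and 6.13, 5.82, 5.79 and 5.41 after swimming, and it fell by 0.70 ± 0.16 (adjusted p = 0.0487), a call lost without any one of 6 of the 7 liver arrays. The groups did not overlap, and the interaction was 1.47 ± 0.26 (adjusted p = 0.00308). The Lgals3 rise in visceral fat was lost with the values as deposited, with median centring and without the 3 visceral fat arrays of high Alb.

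**Figure D3:**
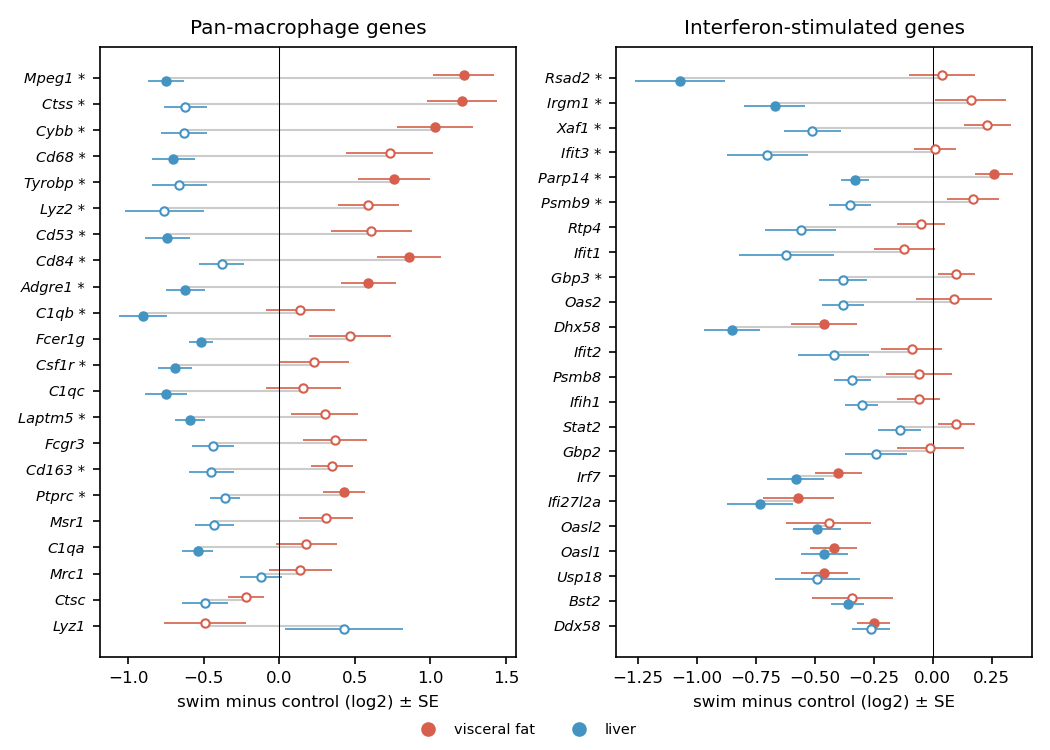
Change after swimming (swim minus control, log2) with its SE of the 22 pan-macrophage genes (left) and the 23 interferon-stimulated genes (right) measured in both tissues; filled points passed in that tissue, and an asterisk marks genes whose interaction passed. Of the macrophage genes 20 lie right of 0 in visceral fat and left of 0 in liver (14 of 22 lie right of 0 in visceral fat with median-centred arrays), and all 23 interferon-stimulated genes lie left of 0 in liver.

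Interferon-stimulated genes, which cells switch on in answer to type I and type II interferons, were lower after swimming in liver and did not move as a block in visceral fat. In liver 9 of 25 measured genes fell and 0 rose (limma; 23 and 0 at an unadjusted p under 0.05), with a median change of -0.46. In visceral fat 1 of 23 rose and 6 fell, with a median of -0.06. Beside them, 11.6% of all genes rose and 12.3% fell there, 2.24% fell in liver, and 7.74% had a higher response in visceral fat. The interaction passed in 7 of the 23 genes measured in both (Gbp3, Ifit3, Irgm1, Parp14, Psmb9, Rsad2 and Xaf1), each with a higher response in visceral fat. That count was 1 with the values as deposited and 3 with median centring, and 1 gene passed in liver without swim 53.

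The upstream sequence is shown for Irgm1 and Ifit3, which gave interactions of 0.83 and 0.71, because both carry the motif through which interferon-activated factors bind. The 250 bases before the gene start, from RefSeq (GRCm38.p6, 5′ to 3′ on the gene's strand), were searched on both strands for the interferon-stimulated response element, here 2 copies of GAAA separated by any 2 bases. Of 32851 promoter windows of that length, 978 hold it (2.98%). The capitals mark the matches, 2 in Ifit3, read on the other strand, and 2 overlapping ones in Irgm1.
Irgm1: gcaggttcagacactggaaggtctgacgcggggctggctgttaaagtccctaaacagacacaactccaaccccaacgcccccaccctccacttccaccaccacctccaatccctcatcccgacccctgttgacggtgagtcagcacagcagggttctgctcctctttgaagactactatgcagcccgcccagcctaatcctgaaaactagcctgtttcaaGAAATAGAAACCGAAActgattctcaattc
Ifit3: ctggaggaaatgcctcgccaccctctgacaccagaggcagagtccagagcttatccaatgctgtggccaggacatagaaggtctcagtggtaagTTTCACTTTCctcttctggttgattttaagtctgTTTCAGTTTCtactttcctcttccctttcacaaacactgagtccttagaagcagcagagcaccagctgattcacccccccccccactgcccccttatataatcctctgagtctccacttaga
The Irgm1 window is chr11:48871421-48871670 on the minus strand and the Ifit3 window chr19:34583279-34583528 on the plus strand. The Rsad2 window holds 1 match, and no match to these letters was found in that of Xaf1. Among other windows searched, that of Cybb holds 3 matches and those of Ctss and Saa3 hold 1 each. The windows of Mpeg1, Lgals3 and Rnf213 hold none. A match is a description of the sequence and shows no binding.

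Irgm1, an interferon-induced GTPase, read 10.29, 9.83 and 9.74 in liver controls and 9.22, 9.28, 9.24 and 9.40 after swimming, and it fell by 0.67 ± 0.13 (adjusted p = 0.0295). In visceral fat its change was 0.16 ± 0.15, with overlapping groups. Rsad2, the antiviral enzyme viperin, fell by 1.07 ± 0.19 in liver (adjusted p = 0.0229) from 8.88, 8.09 and 8.18 to 7.19, 7.49, 7.40 and 7.16, and its visceral fat change was 0.04 ± 0.14. The Rsad2 interaction was 1.11 ± 0.25 (adjusted p = 0.0101). Ifit3, which binds foreign RNA, had a liver change of -0.70 ± 0.17 (adjusted p = 0.0556) and a visceral fat change of 0.01 ± 0.09, with an interaction of 0.71 ± 0.19.

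Parp14, an ADP-ribosyltransferase, was the interferon-stimulated gene that moved both ways, with a rise of 0.26 ± 0.08 in visceral fat (adjusted p = 0.0405) and a liver level that fell by 0.33 ± 0.06 (adjusted p = 0.0272). Its visceral fat call was lost without any one of 7 of the 8 visceral fat arrays, and its liver call without any one of 6 of the 7 liver arrays. Other members fell in both tissues: Irf7, the master regulator of type I interferon induction, changed by -0.40 ± 0.10 in visceral fat and -0.58 ± 0.12 in liver, Dhx58, a sensor of viral RNA, by -0.46 ± 0.14 and -0.85 ± 0.12, and Ifi27l2a by -0.57 ± 0.15 and -0.73 ± 0.14. Their interactions of 0.19, 0.39 and 0.16 did not pass. The visceral fat call of Dhx58 was lost in 9 of 24 alternatives and the liver call of Irf7 in 8 of 25. Irf7 was named after its values were seen.

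Acute phase genes, whose plasma proteins liver makes in inflammation, fell in liver in 7 of 24 measured (Fga, Hp, Itih3, Lcn2, Saa2, Saa3 and Saa4) beside 2.24% of all genes, and in 3 of 24 without liver control 50. In visceral fat 2 of 14 rose (Orm2 and Saa3), beside 11.6% of all genes, and neither rise passed without control 1. Saa2, a serum amyloid A protein, read 15.52, 15.96 and 15.52 in liver controls and 10.66, 11.25, 10.58 and 12.35 after swimming, and it fell by 4.46 ± 0.39 (adjusted p = 0.00285). Members of this family are near-identical, so the value is uncertain as to the member. Lcn2, the iron-trapping protein lipocalin 2, fell by 2.20 ± 0.24 in liver. Its visceral fat change was -0.15 ± 0.53 and its interaction of 2.05 ± 0.67 did not pass (adjusted p = 0.0542).

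Saa3, the serum amyloid A that macrophages and adipocytes make, had the largest interaction of the 43 opposite movers, 2.57 ± 0.34 (adjusted p = 0.00033). In liver it read 7.52, 8.13 and 7.96 in controls and 6.30, 6.13, 5.55 and 6.07 after swimming, and it fell by 1.86 ± 0.20 (adjusted p = 0.00645). In visceral fat it read 7.18, 7.30, 6.81 and 7.11 in controls and 8.19, 7.14, 8.32 and 7.60 after swimming, a rise of 0.71 ± 0.23 with an adjusted p of 0.0498. The visceral fat groups overlapped, and that call was lost without any visceral fat array other than swim 6.

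Beyond immune genes, Lifr and Col15a1 also rose in visceral fat and fell in liver. Lifr, the receptor of leukaemia inhibitory factor, rose by 0.54 ± 0.11 in visceral fat and fell by 0.45 ± 0.07 in liver. Col15a1, a basement membrane collagen, rose by 0.60 ± 0.12 and fell by 0.68 ± 0.13. The interactions were 0.99 ± 0.14 and 1.28 ± 0.18, both with an adjusted p of 0.000502, and no arrays overlapped in either tissue for either gene. Ms4a6c, a membrane protein of myeloid cells, rose by 0.63 ± 0.12 and fell by 0.58 ± 0.13. Both Lifr calls and the Col15a1 rise were lost with the values as deposited and with median centring. The liver call was lost in 7 of 25 alternatives for Lifr, 4 of 24 for Col15a1 and 10 of 24 for Ms4a6c.

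Steap2, a metal reductase, was among the 17 genes that fell in visceral fat and rose in liver. It read 8.22, 7.89, 8.0 and 8.29 in visceral fat controls and 7.54, 6.98, 7.09 and 7.57 after swimming, and it fell by 0.81 ± 0.15 (adjusted p = 0.00626). The liver arrays read 7.54, 7.37 and 7.31 in controls and 7.80, 7.84, 7.98 and 8.05 after swimming, a rise of 0.51 ± 0.09 (adjusted p = 0.0229). Neither tissue showed overlap, and the interaction was -1.32 ± 0.19 (adjusted p = 0.000742).

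Hyi, hydroxypyruvate isomerase, had the smallest p of any opposite mover named here, with an interaction of -1.04 ± 0.11 (adjusted p = 9.7e-05). Its levels were 7.58, 7.57, 7.84 and 7.64 in visceral fat controls and 7.23, 7.16, 7.21 and 7.24 after swimming. In liver they were 8.34, 8.57 and 8.61 in controls and 9.0, 9.20, 9.12 and 9.10 after swimming. No arrays overlapped, and the call was lost with the values as deposited in visceral fat.

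St3gal5, the synthase of ganglioside GM3, fell by 0.62 ± 0.16 in visceral fat and rose by 0.85 ± 0.13 in liver, with an interaction of -1.47 ± 0.22. Ntn1, the guidance cue netrin 1, fell by 0.77 ± 0.12 and rose by 0.41 ± 0.08. Vegfb, an endothelial growth factor of the VEGF family, fell by 0.28 ± 0.08 and rose by 0.48 ± 0.07, Macrod1, a mitochondrial ADP-ribose hydrolase, fell by 0.55 ± 0.13 and rose by 0.46 ± 0.07, and Fbln5, an elastic fibre protein, fell by 0.44 ± 0.12 and rose by 0.49 ± 0.08. Swim and control arrays overlapped in visceral fat for Macrod1, where control 1 at 6.68 lay just below swim 5 at 6.69. Of the liver calls in this group, those of Steap2, Ntn1, Vegfb and Macrod1 were lost with the values as deposited and with median centring. The visceral fat calls of Fbln5 and Vegfb were each lost in 7 of 25 alternatives.

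Some fatty acid synthesis genes rose in each tissue, and the visceral fat counts depended on the scaling. In visceral fat 9 of 22 measured genes rose and 0 fell (limma; 10 and 0 at an unadjusted p under 0.05), and in liver 6 of 25 rose and 1 fell. Beside these counts, 11.6% of all genes rose and 12.3% fell in visceral fat, and 1.89% rose and 2.24% fell in liver. Of the 22 measured in both, 18 were up by sign in each tissue, but not the same 18. By sign 3 were up in visceral fat and down in liver, and 3 the reverse. Of the 22, 2 passed in both tissues with the same sign. Beside 13.9% of all genes, 4 of the 22 passed the interaction test, 2 in each direction. The median change was 0.29 in visceral fat and 0.39 in liver, but the visceral fat median was 0.04 with the values as deposited and -0.07 with median centring, against -0.12 and -0.24 for all genes. With the values as deposited 4 rose in visceral fat, and with median centring 3 rose and 4 fell there, while 5 interactions passed toward liver and 1 toward visceral fat. Leaving out visceral fat swim 6 left 4 rises in visceral fat, leaving out the 3 arrays of high Alb left 2, and leaving out liver control 49 left 1 in liver.

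Acaca, acetyl-CoA carboxylase 1, which makes the first committed intermediate of the pathway, rose in both tissues and was named after its values were seen. In visceral fat it read 11.84, 12.09, 11.76 and 12.29 in controls and 12.51, 12.89, 12.80 and 12.64 after swimming, a rise of 0.72 ± 0.13 (adjusted p = 0.00519). In liver it read 9.48, 9.86 and 9.86 in controls and 10.62, 10.35, 10.34 and 10.11 after swimming, a rise of 0.62 ± 0.14 (adjusted p = 0.0476). The groups did not overlap, and the interaction was 0.10 ± 0.20 (adjusted p = 0.784).

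Elovl6, the elongase that makes stearate from palmitate, rose by 1.40 ± 0.39 in visceral fat (adjusted p = 0.0276) and by 0.73 ± 0.16 in liver (adjusted p = 0.046). Visceral fat controls read 10.12, 10.39, 8.76 and 10.72 and swim arrays 10.98, 11.75, 11.90 and 10.98, with control 3 lowest and no overlap. Its liver call, like that of Acaca, was lost without any one of 6 of the 7 liver arrays other than swim 56. Me1, the NADPH-making malic enzyme, rose by 0.68 ± 0.16 in visceral fat and had a liver change of 0.64 ± 0.15 (adjusted p = 0.0579). Acss2, acetyl-CoA synthetase, rose by 0.80 ± 0.22 in visceral fat with 0.75 ± 0.26 in liver (adjusted p = 0.143), and Fasn, fatty acid synthase, by 0.37 ± 0.11 with 0.55 ± 0.20 (adjusted p = 0.153). Me1, Acss2 and Fasn were named after their values were seen. The visceral fat call of Fasn was lost in 9 of 25 alternatives and that of Acss2 in 6 of 25.

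The 4 synthesis genes that differed between the tissues played separate roles. Mlxipl, which encodes the glucose-sensing transcription factor ChREBP, read 8.87, 9.31, 9.43 and 9.51 in visceral fat controls and 10.33, 10.40, 10.43 and 10.30 after swimming, a rise of 1.08 ± 0.13 (adjusted p = 0.000823). Its liver arrays read 10.95, 11.54 and 11.32 in controls and 11.05, 11.18, 11.25 and 11.20 after swimming, a change of -0.10 ± 0.13. The groups were apart in visceral fat and overlapped in liver, and the interaction of 1.18 ± 0.19 (adjusted p = 0.00166) passed in all 25 alternatives that were followed gene by gene. Tkt, transketolase of the pentose phosphate pathway, rose by 1.16 ± 0.18 in visceral fat, with 0.26 ± 0.08 in liver.

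Elovl5, the elongase of polyunsaturated fatty acids, went the other way. It read 11.48, 11.15 and 11.50 in liver controls and 12.15, 12.28, 12.10 and 12.01 after swimming, a rise of 0.76 ± 0.10 (adjusted p = 0.0118). Its visceral fat change was -0.13 ± 0.07, with overlapping groups, and the interaction was -0.89 ± 0.12 (adjusted p = 0.000469). Aacs, which activates acetoacetate for lipid synthesis, had a liver change of 1.05 ± 0.24 (adjusted p = 0.0509) and an interaction of -1.0 ± 0.27 (adjusted p = 0.025). Acly, ATP citrate lyase, rose in visceral fat by 1.20 ± 0.34, and its interaction of 0.83 ± 0.48 did not pass.

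Of the triglyceride synthesis genes, 4 of 16 rose and 3 fell in visceral fat, and 2 of 15 rose and 1 fell in liver. Their interaction passed in 7 of 14, 3 higher in visceral fat and 4 higher in liver. All genes gave 11.6% and 12.3% in visceral fat, 1.89% and 2.24% in liver, and 13.9% for the interaction. The list counts depended on the scaling. With median centring 8 interactions passed, all higher in liver, where 1827 of 9875 genes passed too, and all 5 visceral fat calls were falls. With the values as deposited 1 interaction passed, higher in liver. Without visceral fat control 1, 1 gene rose in visceral fat, and without liver swim 53, 1 interaction was higher in liver. Dgat1, which adds the last acyl chain, rose in visceral fat by 0.54 ± 0.09, from 11.32, 11.32, 11.62 and 11.29 to 11.90, 11.89, 12.01 and 11.91, with 0.07 ± 0.06 in liver. Gpd1, which makes glycerol 3-phosphate, rose by 0.33 ± 0.09 in visceral fat with -0.23 ± 0.10 in liver. Agpat2, an acyltransferase of the same pathway, fell by 0.40 ± 0.09 in liver with 0.25 ± 0.10 in visceral fat. With the values as deposited and with median centring, the interactions of these 3 genes did not pass, and that of Dgat1 was -0.02 with median centring. The Agpat2 fall was lost in 11 of 25 alternatives, including without any one of the 7 liver arrays, and the Gpd1 rise in 9 of 25.

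Lpin1, a phosphatidate phosphatase, rose by 0.37 ± 0.11 in visceral fat, a rise that turned to -0.11 with median centring. Levels in liver were 8.62, 10.02 and 10.82 in controls and 11.54, 11.30, 11.92 and 11.91 after swimming, so control 49 stood far below the rest and the change of 1.85 ± 0.45 did not pass (adjusted p = 0.0585). The interaction of -1.47 ± 0.46 (adjusted p = 0.0449) was lost without any one of 13 of the 15 arrays. Acsl5, an acyl-CoA synthetase, fell by 0.31 ± 0.07 in visceral fat with 0.38 ± 0.10 in liver (interaction -0.69 ± 0.11). Mfsd2a, a carrier of lysophosphatidylcholine, rose in liver by 3.02 ± 0.28 (adjusted p = 0.00314), from 6.68, 7.20 and 8.07 to 10.43, 10.18, 10.27 and 10.46, and lay at or below 4.64 on every visceral fat array.

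Genes of lipolysis and lipid droplets had 5 interactions among 12 measured in both tissues, beside 13.9% of all genes. Of the 5, 2 were higher in visceral fat and 3 higher in liver. Lpl, lipoprotein lipase, read 8.13, 7.78 and 8.47 in liver controls and 7.20, 7.41, 7.31 and 7.01 after swimming, and it fell by 0.89 ± 0.16 (adjusted p = 0.0258). Its level in visceral fat was between 13.04 and 13.31 on every array, a change of 0.09 ± 0.07. Pnpla2, the first lipase of triglyceride breakdown, fell by 0.27 ± 0.08 in visceral fat with 0.28 ± 0.07 in liver (adjusted p = 0.079), and Plin5, a droplet coat protein of oxidative tissues, fell by 0.52 ± 0.14 with 0.20 ± 0.09 in liver. Their interactions were -0.55 ± 0.11 and -0.71 ± 0.18, and their visceral fat calls were lost in 8 of 25 and 6 of 24 alternatives.

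Fatty acid oxidation genes and PPAR-alpha target genes, kept as a single list, moved apart in part, with the higher response in liver. The interaction passed in 8 of 26 genes measured in both tissues, all with the higher response in liver (Acadl, Acot2, Ech1, Eci1, Eci2, Ehhadh, Slc25a20 and Vnn1), and in 0 the other way (limma; 12 and 1 at an unadjusted p under 0.05). Among all genes 6.13% passed toward liver, and 1.89% rose in liver. In visceral fat 1 of 27 rose (Ppara) and 5 fell, beside 11.6% and 12.3% of all genes. In liver 5 of 32 rose and 0 fell (limma; 17 and 1 at an unadjusted p under 0.05). The median change was -0.07 in visceral fat and 0.20 in liver. With median centring 21 of the 26 interactions passed, each higher in liver. That scaling shifted all genes the same way: 1827 of 9875 passed toward liver and 305 toward visceral fat. The median interaction of all genes was then -0.23, against -0.63 for the list. With the values as deposited 5 of the 26 passed, each higher in liver, and leaving out liver control 49 left 2 rises in liver.

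Acadl, long-chain acyl-CoA dehydrogenase, the first enzyme of the mitochondrial spiral, passed in liver. It read 10.0, 10.06 and 10.08 in liver controls and 10.60, 10.61, 10.65 and 10.61 after swimming, a rise of 0.57 ± 0.06 (adjusted p = 0.00431). In visceral fat it read 10.73, 11.00, 11.17 and 10.86 in controls and 10.79, 10.91, 11.07 and 10.94 after swimming, a change of -0.01 ± 0.10. The liver arrays formed separate groups, the visceral fat arrays overlapped, and the interaction was -0.58 ± 0.12 (adjusted p = 0.0081). Acot2, a mitochondrial acyl-CoA thioesterase, rose by 0.87 ± 0.16 in liver with -0.26 ± 0.13 in visceral fat.

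Other members passed in visceral fat and not in liver. Vnn1, pantetheinase, which acts in coenzyme A turnover, read 8.81, 8.48, 9.20 and 8.32 in visceral fat controls and 7.10, 6.73, 6.65 and 7.20 after swimming, and it fell by 1.79 ± 0.19 (adjusted p = 0.000511). Its liver change was 0.57 ± 0.24 (adjusted p = 0.209), and the interaction was -2.35 ± 0.32 (adjusted p = 0.00049). Ech1 and Eci2, auxiliary enzymes for unsaturated fatty acids, fell in visceral fat, with changes of -0.23 ± 0.07 and -0.28 ± 0.07, with 0.22 ± 0.09 and 0.31 ± 0.10 in liver. All swim arrays lay below all controls in visceral fat for these 3 genes, and in liver all swim arrays of Ech1 and Eci2 lay above all controls, with changes of a size like those in visceral fat. The visceral fat call of Ech1 was lost in 9 of 25 alternatives and that of Eci2 in 6 of 25.

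Among genes of this group too dim for a test in visceral fat, Cyp4a14, a fatty acid omega-hydroxylase, rose in liver by 3.83 ± 0.21 (adjusted p = 0.000232), from 8.31, 8.17 and 8.25 to 11.53, 12.06, 12.58 and 12.14. Acot3, a peroxisomal thioesterase, rose by 2.91 ± 0.62 (adjusted p = 0.0415), from 4.72, 4.80 and 5.13 to 7.14, 7.67, 9.69 and 6.69, with swim 55 far above the rest. Both have near-identical family members, and which member the probes read is uncertain. Abcd2, a peroxisomal importer of very long-chain acyl-CoA, rose by 1.68 ± 0.32 in liver with -0.14 ± 0.08 in visceral fat (interaction -1.82 ± 0.33). Lipg, endothelial lipase, rose by 1.62 ± 0.30 in liver with -0.22 ± 0.23 in visceral fat (interaction -1.84 ± 0.40).

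**Figure D4:**
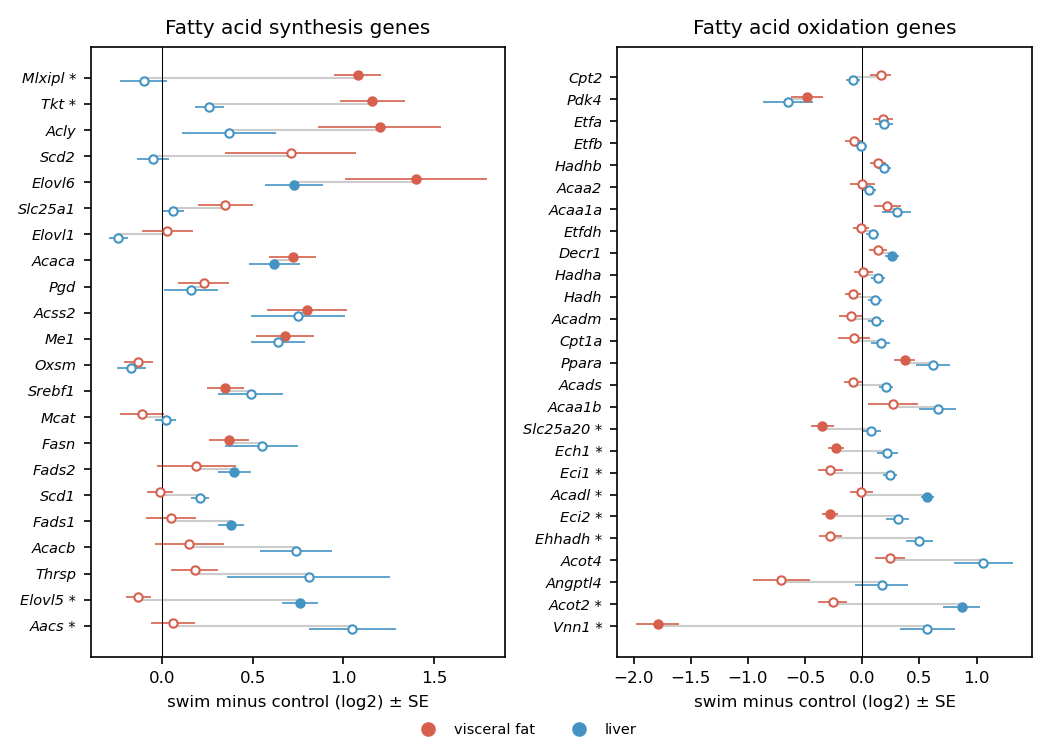
Change after swimming (swim minus control, log2) with its SE of the 22 fatty acid synthesis genes (left) and the 26 fatty acid oxidation and PPAR-alpha target genes (right) measured in both tissues. Filled points passed in that tissue, and an asterisk marks genes whose interaction passed. In each tissue 18 of 22 synthesis genes, not all the same ones, lie right of 0 (10 of 22 in visceral fat with median-centred arrays). In the right panel 8 genes, down to Vnn1, have asterisks, all with liver to the right of visceral fat.

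Glucose and glycogen genes rose in visceral fat in 8 of 22 measured and in liver in 5 of 26, with 1 fall in each. The interaction passed in 3 of 20, near the 13.9% of all genes, and the rises stand beside 11.6% and 1.89% of all genes. In visceral fat the count was 2 rises with the values as deposited and 3 with median centring. Gys2, the liver form of glycogen synthase, rose in both tissues. It read 7.77, 8.05, 6.67 and 8.25 in visceral fat controls and 9.04, 9.57, 9.25 and 8.42 after swimming (1.39 ± 0.34, adjusted p = 0.0165), and 10.57, 10.98 and 11.08 against 11.58, 11.63, 11.65 and 11.52 in liver (0.72 ± 0.12, adjusted p = 0.0201). No arrays overlapped. Gbe1, the glycogen branching enzyme, named after its values were seen, rose by 0.66 ± 0.15 and 0.50 ± 0.07, and Pdk1, which restrains pyruvate dehydrogenase, by 0.69 ± 0.15 and 1.03 ± 0.16.

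Ppp1r3b, which targets phosphatase 1 to glycogen, rose in visceral fat by 1.18 ± 0.30 with -0.32 ± 0.24 in liver. Its interaction of 1.5 ± 0.43 (adjusted p = 0.0309) was lost in 8 of 24 alternatives, among them leaving out visceral fat control 1 or 3 or liver control 50 or 52. Pkm, muscle-type pyruvate kinase, rose by 0.43 ± 0.12 in visceral fat with -0.41 ± 0.19 in liver, where control 52, the array of high muscle genes, read 7.87 against 6.97 and 7.15 in the other controls. The Pkm interaction of 0.84 ± 0.23 passed without that array and was lost in 4 of 24 alternatives: with the values as deposited, with median centring, without liver swim 53 and without the 3 visceral fat arrays of high Alb. Pfkfb2, which sets the fructose 2,6-bisphosphate level, rose by 0.67 ± 0.07 in liver with 0.11 ± 0.08 in visceral fat (interaction -0.55 ± 0.11).

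Circadian clock genes were among the largest shared changes, with activators lower and the repressors they induce higher in both tissues. Of 4 clock activators, 3 fell in each tissue (Arntl, Npas2 and Clock) and 1 rose in visceral fat (Rora), with medians of -1.27 and -1.09, and 0 of 4 interactions passed (limma; also 0 at an unadjusted p under 0.05). Of 9 repressors, 7 rose in visceral fat and 5 in liver (limma; 8 in liver at an unadjusted p under 0.05), with medians of 1.30 and 1.51, and 1 interaction passed. Of 8 output genes, 6 rose and 2 fell in visceral fat, 4 rose and 1 fell in liver, and 3 interactions passed. For all genes the shares were 11.6% and 12.3% in visceral fat, 1.89% and 2.24% in liver, and 13.9% for the interaction. The labels give no hour of collection, and its part in these changes was not tested.

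The upstream sequences of 4 of these genes are shown because each carries a motif bound by clock factors and each moved in both tissues. The same windows of 250 bases (RefSeq, GRCm38.p6) were searched on both strands for the E-box CACGTG bound by the activators, found in 1978 of 32851 windows (6.02%), the D-box TTANGTAA, in 677 (2.06%), and the ROR response element core TAGGTCA, in 734 (2.23%). In capitals are 3 E-boxes in Ciart, 1 in Bhlhe41, 2 D-boxes in Per3, and in Nfil3 the element core read on the other strand.
Ciart: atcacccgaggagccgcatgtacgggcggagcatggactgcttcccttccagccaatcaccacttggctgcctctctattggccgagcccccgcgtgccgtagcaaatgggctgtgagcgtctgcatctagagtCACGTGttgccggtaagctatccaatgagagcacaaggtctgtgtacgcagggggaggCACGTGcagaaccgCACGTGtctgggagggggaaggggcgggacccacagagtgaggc
Bhlhe41: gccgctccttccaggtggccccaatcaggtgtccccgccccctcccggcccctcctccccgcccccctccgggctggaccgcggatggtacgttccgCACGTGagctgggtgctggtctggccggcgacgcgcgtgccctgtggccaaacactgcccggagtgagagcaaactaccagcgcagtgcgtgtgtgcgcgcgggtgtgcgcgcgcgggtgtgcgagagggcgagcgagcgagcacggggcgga
Per3: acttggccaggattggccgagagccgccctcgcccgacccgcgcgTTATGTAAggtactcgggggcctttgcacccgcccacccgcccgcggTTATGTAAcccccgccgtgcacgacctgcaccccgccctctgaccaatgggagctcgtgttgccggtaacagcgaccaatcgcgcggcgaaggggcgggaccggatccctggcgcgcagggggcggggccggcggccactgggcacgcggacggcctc
Nfil3: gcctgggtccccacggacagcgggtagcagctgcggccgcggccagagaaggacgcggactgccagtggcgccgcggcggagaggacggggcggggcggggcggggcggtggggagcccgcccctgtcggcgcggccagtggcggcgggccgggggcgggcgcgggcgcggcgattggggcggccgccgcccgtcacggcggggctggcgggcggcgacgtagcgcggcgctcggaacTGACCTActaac
The windows are chr3:95882229-95882478, chr6:145865421-145865670, chr4:151044666-151044915 and chr13:52981040-52981289, all on the minus strand. The windows of Arntl, Npas2, Clock, Hlf, Nr1d2 and Usp2 held none of the 3 motifs in these letters, and each of 2 windows of Tef held 1 E-box. These matches describe sequence and show no binding.

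Ciart, a repressor of the activator pair, had the largest shared rise. It read 5.16, 4.95, 4.91 and 4.94 in visceral fat controls and 7.62, 8.16, 7.88 and 8.07 after swimming, a rise of 2.95 ± 0.12 (adjusted p = 1.41e-06). In liver it read 5.05, 5.64 and 5.84 in controls and 8.92, 8.86, 8.61 and 8.84 after swimming, a rise of 3.29 ± 0.18 (adjusted p = 0.000232). The groups lay far apart in both tissues, and the interaction was -0.35 ± 0.22 (adjusted p = 0.307).

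Per3, a period protein, rose by 2.09 ± 0.08 in visceral fat and 2.03 ± 0.24 in liver, with an interaction of 0.06 ± 0.25. Its liver controls read 5.75, 6.73 and 6.83, with control 49 lowest. Per2 rose by 1.65 ± 0.17 and 1.51 ± 0.20, and Bhlhe41, an E-box-binding repressor, by 1.39 ± 0.13 and 1.86 ± 0.13. Tef, an activator that binds D-boxes, rose by 1.27 ± 0.09 and 1.16 ± 0.18.

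Arntl, which encodes BMAL1, fell by nearly the same amount in both tissues. Visceral fat controls read 7.82, 7.61, 7.73 and 7.57 and swim arrays 5.36, 5.54, 5.19 and 5.53, a change of -2.28 ± 0.10 (adjusted p = 1.83e-06). Liver controls read 8.44, 8.01 and 7.97 and swim arrays 5.79, 5.83, 5.49 and 5.97, a change of -2.37 ± 0.15 (adjusted p = 0.000462). No arrays overlapped, and the interaction of 0.09 ± 0.18 gives a difference small beside either change.

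Npas2 and Clock, partners of BMAL1, fell too, with changes of -2.06 ± 0.14 and -0.49 ± 0.07 in visceral fat and -1.57 ± 0.20 and -0.60 ± 0.07 in liver. Nfil3, which represses at D-boxes, changed by -0.68 ± 0.14 in visceral fat and -1.12 ± 0.21 in liver. Outside the clock itself, Cdkn1a, the cell cycle inhibitor p21, changed by -1.82 ± 0.20 and -1.73 ± 0.35, and Gadd45g, a stress-induced growth arrest gene, by -1.64 ± 0.29 and -2.49 ± 0.56. In liver Gadd45g read 8.74, 8.41 and 8.94 in controls and 5.95, 4.99, 7.83 and 6.04 after swimming, with swim 55 nearest the controls. The liver calls of Cdkn1a and Gadd45g were each lost without any one of 6 of the 7 liver arrays. Timp3, an inhibitor of metalloproteinases, rose by 0.62 ± 0.09 and 0.80 ± 0.16.

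Within the clock, 4 genes answered by different amounts in the tissues. Usp2, a deubiquitinase, rose by 0.94 ± 0.10 in visceral fat and 2.71 ± 0.32 in liver, with an interaction of -1.77 ± 0.34 (adjusted p = 0.00401). Its liver controls read 6.11, 7.30 and 7.70, with control 49 lowest, and its swim arrays 9.89, 9.69, 9.78 and 9.63, and the interaction was kept without control 49. Wee1, a kinase that delays mitosis, read 6.89, 6.76, 6.81 and 6.70 in visceral fat controls and 7.41, 7.56, 7.50 and 7.48 after swimming, a rise of 0.70 ± 0.07.

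In liver Wee1 read 6.28, 6.51 and 6.22 in controls and 8.32, 8.39, 8.34 and 7.91 after swimming, a rise of 1.90 ± 0.13, and the interaction was -1.20 ± 0.14 (adjusted p = 0.000184). Hlf, a D-box-binding activator, was the reverse. It rose by 1.49 ± 0.14 in visceral fat, from 6.40, 6.93, 6.28 and 6.41 to 7.90, 7.97, 8.23 and 7.87, and by 0.49 ± 0.10 in liver, from 8.69, 8.94 and 8.90 to 9.37, 9.49, 9.32 and 9.13 (interaction 1.0 ± 0.19, adjusted p = 0.00401). The groups of both genes were apart in both tissues, so size rather than direction differed. The Hlf liver call was lost in 9 of 25 alternatives. Nr1d2, a haem-binding nuclear repressor, rose by 1.10 ± 0.09 and 0.60 ± 0.10, and its interaction of 0.50 ± 0.14 (adjusted p = 0.0273) was lost in 8 of 25 alternatives.

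**Figure D5:**
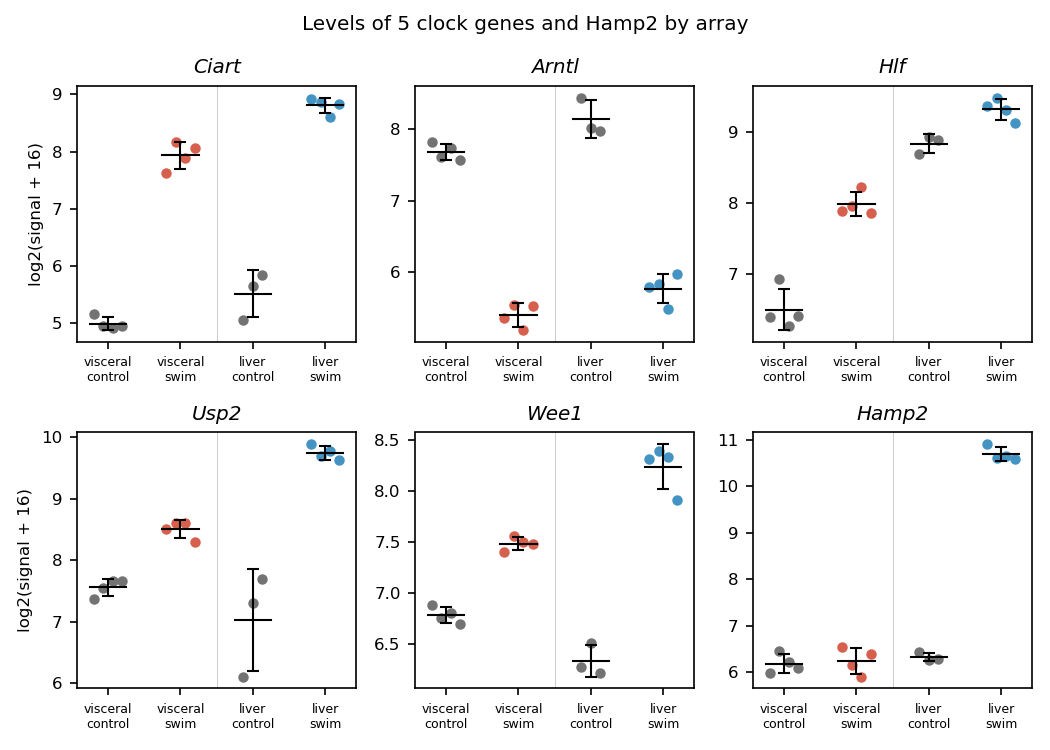
Levels, as log2(signal + 16), of 5 clock genes and of Hamp2; each point is 1 array (4 visceral fat control, 4 visceral fat swim, 3 liver control, 4 liver swim) and bars show the mean ± SD. Ciart rose and Arntl fell alike in both tissues, Usp2 and Wee1 rose more in liver, Hlf rose more in visceral fat, and Hamp2 rose by 4.37 in liver with a change of 0.07 in visceral fat.

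The largest interaction of all belonged to Hamp2, a hepcidin-family peptide gene of liver. It read 6.43, 6.25 and 6.29 in liver controls and 10.91, 10.61, 10.65 and 10.58 after swimming, a rise of 4.37 ± 0.10 (adjusted p = 4.32e-07). In visceral fat its level was between 5.90 and 6.54 on every array, a change of 0.07 ± 0.15, and the interaction was -4.30 ± 0.19 (adjusted p = 4.3e-09). The liver groups were far apart, and near-identical sequence with its paralog makes the value uncertain as to the member.

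Fkbp5, a chaperone partner of the glucocorticoid receptor induced by glucocorticoids, rose by 1.41 ± 0.17 in liver, from 7.52, 7.22 and 7.03 to 8.50, 8.66, 9.07 and 8.42, with a visceral fat change of -0.34 ± 0.13 (adjusted p = 0.0739). Its interaction was -1.75 ± 0.22 (adjusted p = 0.000254), and it was the 1 gene of 18 glucocorticoid-responsive genes whose interaction passed. Noct, a rhythmic phosphatase also called nocturnin, fell by 0.67 ± 0.21 in visceral fat with 1.34 ± 0.42 in liver, where control 49 read 6.13 against 7.77 and 8.08 in the other controls. The Noct interaction was -2.01 ± 0.49, and the Noct fall in visceral fat was lost in 9 of 24 alternatives.

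Pon1, the lactonase carried by high-density lipoprotein, passed in visceral fat. It read 8.20, 7.84, 8.20 and 7.95 in visceral fat controls and 6.78, 6.76, 6.90 and 6.63 after swimming, and it fell by 1.28 ± 0.10 (adjusted p = 0.000139). In liver it lay between 12.52 and 12.88 on every array, a change of 0.18 ± 0.07, and the interaction was -1.46 ± 0.13 (adjusted p = 1.73e-05). Of the 3 visceral fat arrays of high Alb, controls 1 and 2 read 8.20 and 7.84 for Pon1 and swim 6 read 6.76, and all 4 swim arrays lay below all controls. Slc41a2, a magnesium transporter, fell by 1.51 ± 0.21 in liver with 0.22 ± 0.16 in visceral fat.

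Among the largest interactions toward visceral fat were those of Mir505, a microRNA gene, and of Gm7265, Phxr4 and 9530091C08Rik. The probe set of Mir505 rose by 1.83 ± 0.11 in visceral fat, from 6.89, 7.37, 7.16 and 7.03 to 8.81, 8.85, 9.12 and 8.99, with -0.04 ± 0.08 in liver (interaction 1.87 ± 0.14, adjusted p = 5.01e-06). Gm7265 rose by 1.79 ± 0.17, Phxr4 by 1.81 ± 0.15 and 9530091C08Rik by 1.85 ± 0.15 in visceral fat, with liver changes of -0.02, 0.02 and 0.09. In all 4 the visceral fat groups were apart, as the rule that named them required of at least 1 tissue. A whole-transcript array does not measure the mature microRNA, so the Mir505 value is that of RNA matching its probes.

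Endothelial and angiogenesis genes rose in visceral fat in 14 of 30 measured and fell in 3, whereas in liver 1 of 27 rose and 0 fell (limma; 3 and 0 at an unadjusted p under 0.05). Among all genes 11.6% rose and 12.3% fell in visceral fat, and 1.89% rose in liver. Beside 13.9% of all genes, the interaction passed in 9 of 26 in the list, 8 of them higher in visceral fat. The median change was 0.31 in visceral fat and 0.10 in liver. These counts rested on the scaling: with the values as deposited 1 rose and 4 fell in visceral fat and 2 interactions passed, both higher in liver, and with median centring 6 rose and 6 fell and 5 interactions passed, 4 of them higher in liver. Without liver control 50, 4 interactions were higher in visceral fat, and the liver rise was lost without liver control 49. The visceral fat median was 0.01 with median centring, against -0.24 for all genes.

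Kdr, the main receptor of vascular endothelial growth factor, read 8.80, 8.92, 8.87 and 8.85 in visceral fat controls and 9.50, 9.49, 9.50 and 9.68 after swimming, a rise of 0.68 ± 0.07 (adjusted p = 0.000484), with 0.06 ± 0.11 in liver. Dll4, the Notch ligand of sprouting vessels, rose by 0.94 ± 0.12 with 0.17 ± 0.14 in liver. Egfl7, a factor secreted by endothelium, rose by 0.64 ± 0.08 with 0.07 ± 0.11, and Cdh5, the cadherin of endothelial junctions, by 0.49 ± 0.08 with -0.24 ± 0.12. Visceral fat groups were apart in all 4, and their interactions lay between 0.57 and 0.78. Of the list, Angpt1, Cldn5 and Vegfb fell in visceral fat.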

How the data were processed

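The deposited values were linear intensity values of 25917 probe sets per array, 1 array per sample. Per the submitters' processing notes, the authors used PLIER and limma, whose versions and settings, like the genome build, are not given in the sources used here. From the deposited intensities, log2(signal + 16) was taken and quantile normalized within each tissue, since median signals differed between arrays of 1 group. Of the probe sets, 21086 carried 1 gene symbol (18759 symbols), and the 1867 with several and 2964 with none were left out. For each gene the probe set of highest mean was used, and genes under the 40% quantile of a tissue were not tested there.

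In R 4.3.3, limma 3.58.1 (lmFit and eBayes, two-sided, Benjamini-Hochberg adjusted, threshold 0.05) was fitted to each tissue apart and, for the interaction, to the 4 group means of all 15 arrays (11 residual degrees of freedom). Lists were described by counts and medians. The fits were tested on simulated data. Plots used Python 3.11.15 and matplotlib 3.10.9, and the robust fit used statmod 1.5.0.

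Array numbers are those of the labels. Members, the 45 gene lists (718 of 808 names matched) and the rule for named genes were chosen with earlier results of these data known. Named were the 12 largest interactions in each direction without overlap in at least 1 tissue, the 12 genes in each direction with the largest smaller change among opposite and among same-direction movers, up to 6 members of each list with the smallest interaction p and the 2 of largest change per tissue, and tissue markers. The text names some of these. Csf2rb, Siglec1, Cd68, Cd14, Vsig4, Cd5l, Irf7, Acaca, Fasn, Me1, Acss2 and Gbe1, and list members given by name without values, were named after their values were seen. Alternatives changed the scaling, pseudocount, dim-gene filter and fit, and left out each array in turn.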

Additional observations from a re-analysis of the deposited data

Results flagged for a closer look

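In 1369 genes the swim response differed between visceral fat and liver by limma's test of the interaction, and 75 of them are given here with their values. Among immune genes the interaction was higher in visceral fat: 2.57 for Saa3, 1.98 for Mpeg1, 1.83 for Ctss, 1.79 for C3ar1, 1.66 for Cybb, 1.47 for Lgals3, 1.43 for Cd68, 1.42 for Tyrobp, 1.35 for Lyz2, 1.22 for Adgre1 and for Ms4a6c, 1.19 for Csf2rb, 1.16 for Siglec1 and 1.03 for C1qb. Among interferon-stimulated genes it was 1.11 for Rsad2, 0.83 for Irgm1, 0.73 for Xaf1, 0.71 for Ifit3 and 0.59 for Parp14.

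In lipid and sugar metabolism it was higher in visceral fat for Ppp1r3b (1.5), Mlxipl (1.18), Lpl (0.98), Tkt (0.90), Pkm (0.84), Agpat2 (0.64), Gpd1 (0.56) and Dgat1 (0.47). It was higher in liver for Vnn1 (-2.35), Lipg (-1.84), Abcd2 (-1.82), Lpin1 (-1.47), Pon1 (-1.46), Acot2 (-1.13), Aacs (-1.0), Elovl5 (-0.89), Plin5 (-0.71), Acsl5 (-0.69), Eci2 (-0.59), Acadl (-0.58), Pnpla2 (-0.55), Pfkfb2 (-0.55) and Ech1 (-0.45). Clock and hormone-linked genes gave 1.0 for Hlf and 0.50 for Nr1d2, against -4.30 for Hamp2, -2.01 for Noct, -1.77 for Usp2, -1.75 for Fkbp5 and -1.20 for Wee1.

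In vessels, matrix and membrane proteins the values were 1.28 for Col15a1, 0.99 for Lifr, 0.78 for Dll4, 0.73 for Cdh5, 0.62 for Kdr and 0.57 for Egfl7, against -1.47 for St3gal5, -1.32 for Steap2, -1.18 for Ntn1, -1.04 for Hyi, -1.01 for Macrod1, -0.93 for Fbln5 and -0.76 for Vegfb. The remaining genes gave 1.87 for Mir505, 1.82 for Gm7265, 1.79 for Phxr4, 1.76 for 9530091C08Rik, 1.73 for Slc41a2, 0.68 for Mcm6 and 0.36 for Mcm4, against -1.23 for Alas1, -1.09 for Bag3, -0.75 for Dnajb1, -0.68 for Ppbp, -0.62 for Gp9 and -0.54 for Dnajb4.

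Of 351 groups of 4 arrays tested gene by gene for an array far from the other 3, 24 had one, and chance alone gives about 1 in 20. Liver swim 56 lay below the other swim arrays for 7 genes, among them the macrophage genes Adgre1 (7.34, others 7.82 to 7.85), C1qb (8.61, others 9.20 to 9.24), Cd5l (8.20, others 8.71 to 8.80), Cd68 (6.82, others 7.19 to 7.26) and Cybb (7.88, others 8.38 to 8.47), as well as Ntn1 (6.69) and Wee1 (7.91). Visceral fat swim 5 lay above the others for Mpeg1 (9.17, others 8.28 to 8.35), Lgals3 (10.66, others 9.72 to 9.86), Atp6v0d2 (8.86, others 7.42 to 7.66) and Tef (10.16), and swim 8 for Cdh5 (10.72) and Kdr (9.68).

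Visceral fat control 1 stood apart for Ciart (5.16), 9530091C08Rik (5.52) and Plin5 (6.60), control 2 for Lipg (6.70), Egfl7 (9.02) and Clec4f (5.23), control 3 for Dgat1 (11.62), and control 4 for Tkt (11.95) and Pdk1 (8.48). In liver, swim 54 stood apart for Lifr (11.38) and swim 55 for Gm7265 (6.75).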

How the results depend on the processing

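With the values as deposited, 220 interactions, 568 visceral fat calls, 513 liver calls, 19 opposite movers and 44 same-direction genes passed. With median centring 2132 interactions, 5164 visceral fat calls and 361 liver calls passed. Without a filter on dim genes, 295 liver calls, 22 opposite movers and 50 same-direction genes were left. One fit of all 54 arrays gave 708 interactions, a fit with a trend and robust variance 710 liver calls, and leaving out the 3 visceral fat arrays of high Alb, chosen after seeing the data, 888 visceral fat calls, 23 opposite movers and 44 same-direction genes. Leaving out 1 array at a time gave 966 to 1333 interactions, 1692 to 2651 visceral fat calls, 135 to 522 liver calls, 12 to 36 opposite movers and 26 to 84 same-direction genes. Of the 43 opposite movers, 4 remained so with the values as deposited, 13 with median centring and 11 without liver control 49. Of 226 calls of named genes, 99 were kept in every alternative in which the gene was tested, which for some was fewer than all 25. With the values as deposited 81 were lost, with median centring 40, and by leaving out 1 array 78, among them 43 of 70 liver calls. Median centring turned the visceral fat change of Aacs to -0.38, of Gpd1 to -0.07 and of Lpin1 to -0.11, and the interaction of Dgat1 to -0.02. No paired analysis was possible because the labels do not say which arrays came from the same mouse.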

Other observations

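Heat shock chaperone genes, which refold proteins under stress, had a lower response in visceral fat than in liver in 4 of the 16 measured in both tissues (Bag3, Dnajb1, Dnajb4 and Hspb1), and none had a higher one (limma; 8 and 0 at an unadjusted p under 0.05). Among all genes 6.13% had a lower response in visceral fat. With median centring 12 of the 16 did, but so did 1827 of 9875 genes, beside 305 the other way. With the values as deposited 2 of the 16 did, beside 80 of 9875 genes. Dnajb1, a co-chaperone of HSP70, read 7.19, 7.79 and 7.56 in liver controls and 8.14, 8.17, 8.36 and 8.59 after swimming, a rise of 0.80 ± 0.16 (adjusted p = 0.0336), with 0.05 ± 0.07 in visceral fat. The liver groups were apart, and the call was lost without any one of 6 of the 7 liver arrays. Bag3, another HSP70 partner, fell by 0.47 ± 0.13 in visceral fat with 0.62 ± 0.21 in liver. Dnajb4 rose by 0.34 ± 0.07 in liver with -0.20 ± 0.10 in visceral fat, and this liver call too was lost without any one of 6 of the 7 liver arrays. Alas1, the first enzyme of haem synthesis, fell by 0.40 ± 0.10 in visceral fat with 0.82 ± 0.27 in liver.

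Platelet genes fell in visceral fat in 2 of 5 measured, beside 12.3% of all genes. Ppbp, a platelet chemokine, read 7.51, 7.69, 7.85 and 7.71 in controls and 6.88, 6.92, 6.56 and 6.97 after swimming, and it fell by 0.86 ± 0.11 (adjusted p = 0.00111) with -0.17 ± 0.12 in liver. Gp9, a subunit of the platelet receptor for von Willebrand factor, fell by 0.56 ± 0.10 with 0.06 ± 0.12 in liver. Of the replication helicase genes, Mcm6 and Mcm4 fell in liver, with changes of -0.57 ± 0.09 and -0.55 ± 0.08, beside 0.11 ± 0.12 and -0.19 ± 0.08 in visceral fat, and the Mcm4 interaction was lost in 19 of 24 alternatives.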
